A study of Mus musculus with 96 samples.

Results

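Epidermis collected at zeitgeber time (ZT) 12, the start of darkness, was compared with epidermis collected at ZT0, the start of light, within each of 4 mouse genotypes. The members are the 32 libraries of 96 that were made at these times, with 4 mice at ZT12 and 4 mice at ZT0 per genotype. The other 64 libraries, from ZT4, ZT8, ZT16 and ZT20, entered the estimate of the spread between mice. They also entered the mean levels by which genes were chosen for testing and naming. All mice were male C57BL/6 animals 8 weeks old, kept at 12 h of light and 12 h of darkness, and the RNA came from back-skin epidermis parted from the dermis with dispase.

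RERE mice were Arntl stopFL/stopFL and had both transgenes, K14Cre as tg/wt and Syt10-Cre as tg/wt, with Arntl restored in brain and epidermis. EpiRE mice were also Arntl stopFL/stopFL, were K14Cre tg/wt but Syt10-Cre wt/wt, and had Arntl restored in epidermis. BRE mice, again Arntl stopFL/stopFL, were Syt10-Cre tg/wt but K14Cre wt/wt, with Arntl restored in brain. WT mice were Arntl wt/wt and carried both Cre transgenes too, as K14Cre wt/tg and Syt10-Cre tg/wt. K14Cre acts in cells that use the promoter of keratin 14, which is active in basal keratinocytes, and Syt10-Cre acts in brain cells that use the promoter of synaptotagmin 10. Restoration is therefore limited to cells in which each promoter is or has been active and to the cells that descend from them. Immune cells, melanocytes and dermal cells are outside the reach of K14Cre. Nothing in the labels says that the mice came from separate litters, so p-values measure the spread between these mice.

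The circadian clock is a feedback loop in which BMAL1 (the product of Arntl) pairs with CLOCK or NPAS2, binds E-box DNA elements and activates the Per, Cry, Nr1d1, Nr1d2, Dbp and Tef genes. PER and CRY proteins then block BMAL1, while the REV-ERB receptors made from Nr1d1 and Nr1d2 repress Arntl and Npas2. In mouse epidermis the clock is known to time when proliferating basal cells copy their DNA. The brain clock sets the daily rhythm of feeding and of adrenal glucocorticoid hormone, both of which reach the skin.

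Values are RPKM, read counts scaled by gene length and library size, deposited as log2, and differences are log2 of ZT12 minus ZT0 with the standard error (SE). The 4 genotypes were normalized in separate tables, so levels in different genotypes are given side by side and were not tested against each other. A gene was called where the adjusted p-value of limma's moderated test was below 0.05, over the 12144 genes whose mean over all 96 libraries reached 1 RPKM. Estimated depth was 12.0 to 21.1 M reads in the 32 libraries. Keratinocyte markers summed to between 14663 and 22601 RPKM in every library, so these defining markers were high throughout. Markers of other tissues were lower: red blood cell markers summed to between 7.58 and 164 RPKM, skeletal muscle markers to between 32.3 and 50.7 RPKM, melanocyte markers to between 8.07 and 29.9 RPKM, fibroblast markers to between 1.17 and 16.7 RPKM, endothelial markers to at most 0.47 RPKM and adipocyte markers to at most 0.572 RPKM. T cell markers summed to between 11.8 and 37.8 RPKM, and Langerhans and dendritic cell markers to between 78.4 and 137 RPKM. In bulk tissue, fewer cells of a type and less RNA per cell cannot be told apart.

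Arntl, the targeted gene (chr7:113207465-113314126, plus strand, mm10), was first compared in every library. In RERE epidermis it stood at 6.91, 5.76, 4.77 and 5.55 RPKM at ZT12, against 26.5, 22.7, 21.3 and 23.8 RPKM at ZT0. In EpiRE epidermis it stood at 9.90, 13.9, 9.78 and 13.3 RPKM at ZT12, against 13.8, 18.5, 17.2 and 17.1 RPKM at ZT0. In BRE epidermis it stood at 11.7, 11.6, 13.2 and 11.4 RPKM at ZT12, against 13.2, 14.4, 14.6 and 12.6 RPKM at ZT0. Arntl RNA was thus detected in all 4 genotypes, BRE included, and a gene-level value does not separate transcripts with the stop cassette from those without it. In WT epidermis Arntl stood at 5.05, 6.26, 4.69 and 5.39 RPKM at ZT12, against 22.9, 23.3, 27.4 and 21.1 RPKM at ZT0. The times did not overlap in RERE or WT epidermis, and they overlapped in EpiRE and BRE epidermis. Arntl fell by 2.05 ± 0.13 at ZT12 in RERE epidermis (SE, adjusted p = 5.81e-09) and fell by 2.15 ± 0.12 in WT epidermis (adjusted p = 8.84e-10). The differences of -0.52 ± 0.18 in EpiRE epidermis (adjusted p = 0.0891) and -0.20 ± 0.06 in BRE epidermis (adjusted p = 0.0623) did not pass.

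Across the transcriptome, the number of genes that differed between the times was largest in WT and smallest in BRE epidermis. In RERE epidermis 1052 of 12144 genes were called (8.66%), 306 higher (2.52%) and 746 lower (6.14%) at ZT12. In EpiRE epidermis 620 genes were called (5.11%), 425 higher (3.5%) and 195 lower (1.61%). In BRE epidermis 258 genes were called (2.12%), 58 higher (0.478%) and 200 lower (1.65%). In WT epidermis 3107 genes were called (25.6%), 1068 higher (8.79%) and 2039 lower (16.8%). Changes of at least 2-fold among the called genes numbered 146 in RERE, 27 in EpiRE, 15 in BRE and 283 in WT epidermis. The calls of EpiRE and BRE depended on the other 4 times, which help to estimate the spread: with the 8 libraries at ZT12 and ZT0 alone, limma called 980 genes in RERE, 3 in EpiRE, 0 in BRE (1960 at an unadjusted p below 0.05) and 2511 in WT epidermis.

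The split by direction depended on scaling. With libraries rescaled by median-of-ratios, 442 genes were higher and 506 lower in RERE, 314 higher and 297 lower in EpiRE, 65 higher and 40 lower in BRE, and 1498 higher and 1550 lower in WT epidermis. Single libraries also moved the counts. The count in RERE was 613 without the ZT12 mouse 1, 673 without the ZT12 mouse 2, 644 without the ZT0 mouse 2 and 646 without the ZT0 mouse 4. In EpiRE it was 222, 256 and 100 without the ZT12 mice 1, 2 and 3, and 275, 269 and 74 without the ZT0 mice 2, 3 and 4. In BRE it was 120, 31 and 493 without the ZT12 mice 1, 2 and 4, and 966, 39, 33 and 45 without the ZT0 mice 1, 2, 3 and 4. No single WT mouse moved the WT count by over 1.5 times. Among these mice, the BRE ZT0 mouse 1 and the EpiRE ZT0 mouse 4 stood apart in markers of blood and dermis. Their mean red blood cell marker level was 6.14 and 6.11 log2 RPKM, against 2.34 to 3.71 in the other BRE mice and 3.11 to 4.26 in the other EpiRE mice at ZT0. Col1a1, the collagen gene of fibroblasts, stood at 6.98 RPKM in the BRE mouse and 6.23 RPKM in the EpiRE mouse, against 1.09 to 1.61 RPKM and 0.377 to 1.72 RPKM in the other BRE and EpiRE mice at ZT0. WT mice varied in these markers too. Their red blood cell means ran 1.62 to 5.09 log2 RPKM at ZT0 and 0.409 to 3.26 at ZT12. At ZT0 they were highest in WT mouse 4 (5.09) and mouse 2 (4.58). Log2 RPKM of Col1a1 was 2.49 in WT ZT0 mouse 4 and 1.73 in mouse 2, against -0.288 in mouse 1 and 0.165 in mouse 3. The part of blood and dermis in the counts was not tested.

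**Figure D1:**
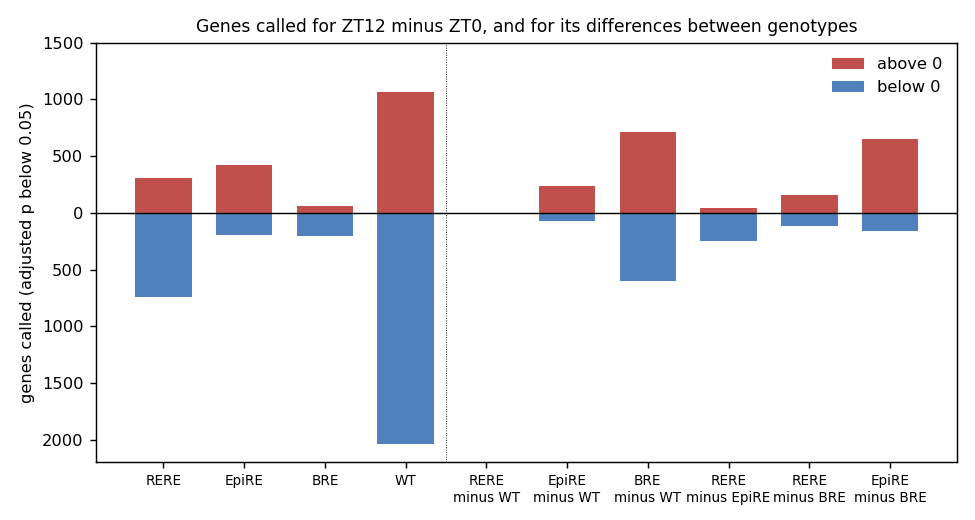
Number of genes called between ZT12 and ZT0 in each genotype, split into genes higher and lower at ZT12 (vertical axis, genes of 12144 tested; limma, adjusted p below 0.05). WT epidermis had 3107 called genes, RERE 1052, EpiRE 620 and BRE 258.

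No gene passed a direct test of RERE against WT. The test of RERE minus WT called 0 of 12144 genes (0%), with 832 at an unadjusted p below 0.05 and a smallest adjusted p of 0.15, for Ldah, a lipid droplet-associated hydrolase. Across the 12144 genes the 2 contrasts correlated with a Pearson r of 0.731 (Spearman rho 0.661), a description across genes from separate mice. Of the genes called in each, 768 were shared, which is 73.0% of the RERE list and 24.7% of the WT list, and all 768 moved the same way. In WT alone 2067 genes were called, and 2926 of the 3107 genes called in WT had the same sign in RERE. A p-value that misses the threshold does not show that the contrasts are alike.

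The other pairs of genotypes differed. EpiRE minus WT called 306 genes (2.52%), 238 higher (1.96%) and 68 lower (0.56%), and BRE minus WT called 1313 genes (10.8%), 712 higher (5.86%) and 601 lower (4.95%). The difference RERE minus EpiRE called 292 genes (2.4%), RERE minus BRE 267 genes (2.2%) and EpiRE minus BRE 808 genes (6.65%). The Pearson r with the WT contrast was 0.524 for EpiRE and -0.013 for BRE, and between EpiRE and BRE it was -0.207. EpiRE shared 312 called genes with WT, which is 50.3% of the EpiRE and 10.0% of the WT list, 310 of them in the same direction. BRE shared 116 called genes with WT, which is 45.0% of the BRE and 3.73% of the WT list, 107 of them in the same direction. EpiRE and BRE shared 12 called genes, 1.94% of the EpiRE and 4.65% of the BRE list.

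With the ZT12 and ZT0 libraries alone, these counts were 83 for EpiRE minus WT, 702 for BRE minus WT, 92 for RERE minus EpiRE, 121 for RERE minus BRE and 2 for EpiRE minus BRE. Single mice moved them too. The lowest and highest counts were 129 without the WT ZT12 mouse 1 and 521 without the EpiRE ZT12 mouse 4 for EpiRE minus WT, and 847 without the BRE ZT0 mouse 3 and 2061 without the BRE ZT0 mouse 1 for BRE minus WT. For EpiRE minus BRE they were 166 without the BRE ZT12 mouse 2 and 1828 without the BRE ZT0 mouse 1, and for RERE minus EpiRE 112 without the RERE ZT0 mouse 2 and 473 without the EpiRE ZT12 mouse 4. For RERE minus BRE they were 167 without the BRE ZT0 mouse 3 and 340 without the BRE ZT0 mouse 1. That count was also 173 without the RERE ZT0 mouse 3. RERE minus WT was 1 without the RERE ZT0 mouse 3 or the WT ZT12 mouse 2. Under median-of-ratios rescaling, EpiRE minus WT had 116 genes higher and 114 lower, RERE minus EpiRE 80 higher and 148 lower (42 and 250 as deposited), and EpiRE minus BRE 332 higher and 295 lower (648 and 160 as deposited). That rescaling moved the median over all genes by at most 0.1 on the log2 scale within each genotype and set the EpiRE minus BRE median at 0.013, against 0.105 as deposited.

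**Figure D2:**
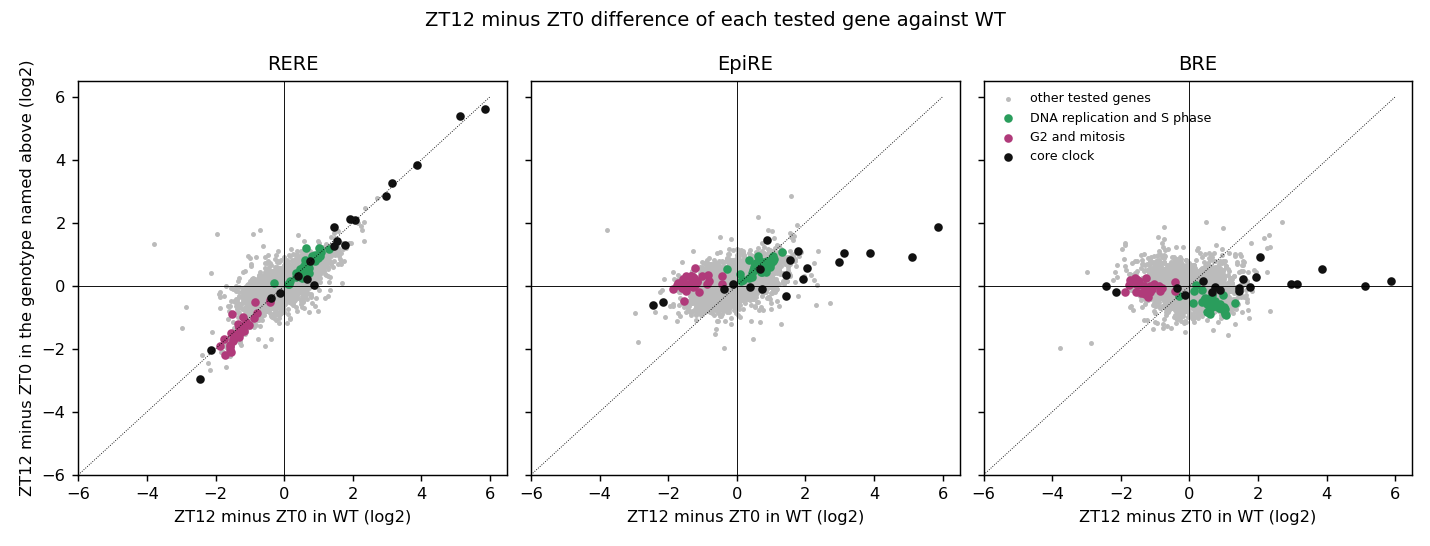
ZT12 minus ZT0 of each gene in RERE, EpiRE and BRE epidermis (vertical axes, log2) against the same contrast in WT epidermis (horizontal axis, log2), for 12144 genes, with core clock, S phase and G2 and mitosis genes coloured and the dotted line marking equality. The Pearson r was 0.731 for RERE, 0.524 for EpiRE and -0.013 for BRE.

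The core clock list separated the genotypes by how many of its genes changed and by how much. Of 20 listed genes 19 were tested, since Bhlhe41 was below the level required. In RERE epidermis 11 were higher and 3 lower at ZT12 (median difference 1.287, against -0.038 over all genes). In EpiRE epidermis 2 were higher, Nfil3 among them, and none lower (median 0.533, against 0.039), with 10 at an unadjusted p below 0.05. In BRE epidermis limma called 0 (median -0.002, against -0.064), with 4 at an unadjusted p below 0.05. In WT epidermis 13 were higher and 3 lower (median 1.447, against -0.044). Over all genes, 2.52% were higher in RERE, 3.5% in EpiRE, 0.478% in BRE and 8.79% in WT epidermis. The shares lower were 6.14% in RERE and 16.8% in WT epidermis. The list lost or gained at most 1 call when any library of RERE or WT was left out, whereas in EpiRE the count was 5 without the ZT0 mouse 1, 0 without the ZT12 mouse 1 or 3 or the ZT0 mouse 3 or 4, 1 without any other mouse, and 0 with the ZT12 and ZT0 libraries alone.

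Promoter sequence is shown for 4 clock genes because each rose strongly at ZT12 in RERE and WT epidermis and each holds a clock element in the 300 bases from 250 before to 50 after its RefSeq start (GRCm38.p6, the assembly of mm10). Capitals mark the E-box CACGTG, bound by BMAL1 with its partners, and the D-box TTANGTAA, bound by DBP, TEF and HLF, on either strand; no E-box overlapped a D-box. Ciart, Tef and Per1 carry E-boxes and Per3 carries D-boxes.
Ciart (chr3:95882179-95882478, minus strand): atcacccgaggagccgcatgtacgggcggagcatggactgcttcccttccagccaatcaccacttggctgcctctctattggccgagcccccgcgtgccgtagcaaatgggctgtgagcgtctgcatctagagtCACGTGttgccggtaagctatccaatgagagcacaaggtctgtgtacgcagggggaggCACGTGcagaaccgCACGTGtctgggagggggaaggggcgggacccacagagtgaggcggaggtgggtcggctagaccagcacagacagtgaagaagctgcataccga
Tef (chr15:81802423-81802722, plus strand): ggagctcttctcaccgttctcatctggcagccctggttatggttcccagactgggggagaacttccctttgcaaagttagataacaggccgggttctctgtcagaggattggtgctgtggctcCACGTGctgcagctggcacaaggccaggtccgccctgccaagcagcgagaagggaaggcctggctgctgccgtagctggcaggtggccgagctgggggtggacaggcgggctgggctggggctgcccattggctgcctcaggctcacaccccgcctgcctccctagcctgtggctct
Per1 (chr11:69098699-69098998, plus strand): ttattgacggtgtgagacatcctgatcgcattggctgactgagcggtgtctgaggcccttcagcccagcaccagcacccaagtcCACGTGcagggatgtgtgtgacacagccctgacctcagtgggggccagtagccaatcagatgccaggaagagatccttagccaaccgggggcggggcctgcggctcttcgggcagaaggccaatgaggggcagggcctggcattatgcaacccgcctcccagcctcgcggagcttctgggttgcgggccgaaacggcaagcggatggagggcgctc
Per3 (chr4:151044616-151044915, minus strand): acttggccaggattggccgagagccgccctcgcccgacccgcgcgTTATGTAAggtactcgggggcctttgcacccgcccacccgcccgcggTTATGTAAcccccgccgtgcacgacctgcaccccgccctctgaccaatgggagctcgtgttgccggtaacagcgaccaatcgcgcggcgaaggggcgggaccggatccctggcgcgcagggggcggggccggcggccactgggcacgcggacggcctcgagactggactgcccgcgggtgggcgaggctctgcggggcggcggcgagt

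The 3 E-boxes of Ciart begin 116, 58 and 44 bases before the start, that of Tef 127 bases and that of Per1 166 bases before it, and the D-boxes of Per3 begin 205 and 158 bases before it. The E-box stood in 4 of 16 core clock windows (25.0%), against 968 of the windows of 9017 tested genes (10.7%). Among genes called at least 2-fold higher at ZT12 in WT epidermis, 14 of 77 windows held it (18.2%), and among those called at least 2-fold lower, 10 of 124 (8.06%). The D-box stood in 1 of 16 core clock windows and in 128 of 9017 (1.42%). Among the genes at least 2-fold higher and lower in WT epidermis it stood in 5.19% and 3.23%. The same shares were 23.4% and 18.5% for the ROR element core AGGTCA, against 12.3% of all windows. They were 9.09% and 4.84% for the E-box variant CACGTT (5.46% of all), and 6.49% and 4.84% for the glucocorticoid element ACANNNTGT (3.77% of all). The windows of Dbp, Nr1d1 and Nr1d2 held no CACGTG. These are letter matches in 1 window per gene, not measured binding.

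Among the targets that repress BMAL1, Per2 (chr1:91415982-91459324, minus strand) had the widest difference between times. In RERE epidermis it stood at 24.4, 23.9, 20.6 and 23.4 RPKM at ZT12, against 0.907, 0.586, 0.376 and 0.237 RPKM at ZT0. EpiRE mice had 15.0, 10.2, 12.2 and 11.2 RPKM at ZT12, against 6.40, 2.43, 3.63 and 2.06 RPKM at ZT0. BRE mice had 8.28, 6.28, 9.82 and 4.26 RPKM at ZT12, against 5.67, 6.75, 5.95 and 6.09 RPKM at ZT0. The 2 times were apart in every RERE and EpiRE mouse and intermixed in BRE mice. In WT epidermis Per2 stood at 26.5, 24.1, 20.7 and 27.7 RPKM at ZT12, against 0.253, 0.558, 0.591 and 0.380 RPKM at ZT0, also apart. The difference was 5.63 ± 0.41 in RERE (adjusted p = 5.66e-08), 1.87 ± 0.60 in EpiRE (adjusted p = 0.0696), 0.16 ± 0.32 in BRE (adjusted p = 0.826) and 5.87 ± 0.31 in WT epidermis (adjusted p = 3.79e-10). EpiRE differed from WT by -3.99 ± 0.69 (adjusted p = 0.000958), while the EpiRE minus BRE difference of 1.71 ± 0.69 did not pass (adjusted p = 0.113).

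Of the remaining repressors, Per3 rose by 3.25 ± 0.19 in RERE and 3.13 ± 0.16 in WT epidermis, and Per1 by 2.10 ± 0.43 and 2.06 ± 0.32. In EpiRE epidermis Per3 averaged 15.3 ± 3.65 RPKM at ZT12 and 7.85 ± 3.76 RPKM at ZT0 (SD, n = 4 each), and its difference of 1.05 ± 0.32 missed the threshold (adjusted p = 0.0615). In BRE epidermis Per3 averaged 2.11 ± 0.16 RPKM at ZT12 and 2.03 ± 0.139 RPKM at ZT0. Per1, which glucocorticoid hormone also induces, averaged 46.1 ± 9.39 RPKM at ZT12 and 26.9 ± 11.9 RPKM at ZT0 in BRE epidermis, a difference of 0.90 ± 0.36 that did not pass (adjusted p = 0.156). Cry2 rose by 1.27 ± 0.14 in RERE and 1.44 ± 0.10 in WT epidermis. Cry1 rose in WT epidermis, by 0.66 ± 0.16 (adjusted p = 0.00637), and its difference was 0.23 ± 0.14 in RERE epidermis (adjusted p = 0.339). Ciart, a repressor of the BMAL1 and CLOCK pair, rose by 3.84 ± 0.34 in RERE and 3.87 ± 0.25 in WT epidermis.

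Dbp (chr7:45705088-45710203, plus strand), a transcription factor that passes the rhythm on through D-boxes, showed the split between genotypes most sharply among the outputs. In RERE epidermis it stood at 60.5, 76.4, 81.2 and 88.8 RPKM at ZT12, against 2.80, 1.66, 1.39 and 1.73 RPKM at ZT0. The EpiRE values were 53.5, 26.9, 36.4 and 29.6 RPKM at ZT12, against 40.6, 8.53, 19.8 and 17.7 RPKM at ZT0. The BRE values were 4.32, 2.88, 3.98 and 3.91 RPKM at ZT12, against 3.99, 3.63, 2.74 and 4.81 RPKM at ZT0. BRE mice were low at both times. EpiRE values lay below every RERE and WT mouse at ZT12 and above every one at ZT0, levels that were not tested. In EpiRE epidermis 1 mouse at ZT0 stood above 3 of the 4 at ZT12. In WT epidermis Dbp stood at 68.3, 64.0, 90.1 and 70.5 RPKM at ZT12, against 2.35, 2.15, 1.83 and 2.07 RPKM at ZT0. The difference was 5.37 ± 0.26 in RERE (adjusted p = 1.45e-10), 0.92 ± 0.55 in EpiRE (adjusted p = 0.306), 0.01 ± 0.17 in BRE (adjusted p = 1) and 5.12 ± 0.31 in WT epidermis (adjusted p = 2.34e-09). Tef, a relative of Dbp, rose by 2.86 ± 0.16 in RERE and 2.96 ± 0.14 in WT epidermis, and the difference EpiRE minus WT was -2.22 ± 0.32 (adjusted p = 0.000136).

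Nfil3, which opposes DBP at D-boxes, was the exception among these outputs, since it was called in EpiRE epidermis. It stood there at 14.8, 11.7, 29.2 and 15.2 RPKM at ZT12, against 4.01, 10.8, 4.82 and 6.57 RPKM at ZT0, without overlap. Its difference was 1.45 ± 0.35 in EpiRE (adjusted p = 0.0261), 0.01 ± 0.57 in RERE, -0.13 ± 0.43 in BRE and 0.88 ± 0.54 in WT epidermis. No difference between genotypes in Nfil3 passed, and EpiRE minus WT was 0.57 ± 0.65 (adjusted p = 0.712).

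The REV-ERB receptor gene Nr1d1 (chr11:98767932-98775333, minus strand) was high at both times in EpiRE and low at both in BRE epidermis. In RERE epidermis it stood at 59.3, 65.7, 89.0 and 90.3 RPKM at ZT12, against 34.7, 15.7, 20.6 and 15.2 RPKM at ZT0. In EpiRE epidermis it stood at 65.5, 44.5, 50.2 and 47.7 RPKM at ZT12, against 91.4, 38.9, 74.5 and 62.0 RPKM at ZT0. In BRE epidermis it stood at 3.66, 3.43, 3.30 and 4.68 RPKM at ZT12, against 3.58, 3.98, 4.27 and 3.88 RPKM at ZT0. The times overlapped in EpiRE and BRE mice and not in RERE mice. In WT epidermis Nr1d1 stood at 67.8, 67.4, 79.5 and 68.2 RPKM at ZT12, against 24.2, 22.3, 32.9 and 25.3 RPKM at ZT0. It rose by 1.88 ± 0.20 in RERE and 1.45 ± 0.13 in WT epidermis, and EpiRE minus WT was -1.76 ± 0.38 (adjusted p = 0.0103). Nr1d2 rose by 2.13 ± 0.17 in RERE and 1.93 ± 0.15 in WT epidermis.

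The partner of BMAL1 encoded by Npas2 moved in the same direction as Arntl. In RERE epidermis it stood at 2.59, 1.55, 1.18 and 1.27 RPKM at ZT12, against 12.0, 11.9, 10.8 and 14.1 RPKM at ZT0. BRE mice had 15.3, 19.5, 15.7 and 14.2 RPKM at ZT12, against 13.9, 16.2, 17.5 and 16.9 RPKM at ZT0. In EpiRE epidermis the values were 2.87, 3.8, 2.13 and 4.23 RPKM at ZT12, against 3.35, 5.76, 6.64 and 4.34 RPKM at ZT0. The times were apart in RERE mice and overlapped in EpiRE and BRE mice. In WT epidermis Npas2 stood at 2.15, 1.98, 1.67 and 2.11 RPKM at ZT12, against 9.54, 10.1, 12.8 and 10.8 RPKM at ZT0, also apart. Npas2 fell by 2.95 ± 0.23 in RERE and by 2.45 ± 0.19 in WT epidermis. Its differences were -0.63 ± 0.33 in EpiRE (adjusted p = 0.247) and -0.00 ± 0.09 in BRE epidermis (adjusted p = 1). Clock fell by 0.39 ± 0.08 in RERE and 0.37 ± 0.04 in WT epidermis. Arntl2, a relative of Arntl, was called in none of the 4 genotypes, with differences between -0.29 ± 0.16 and 0.07 ± 0.12.

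**Figure D3:**
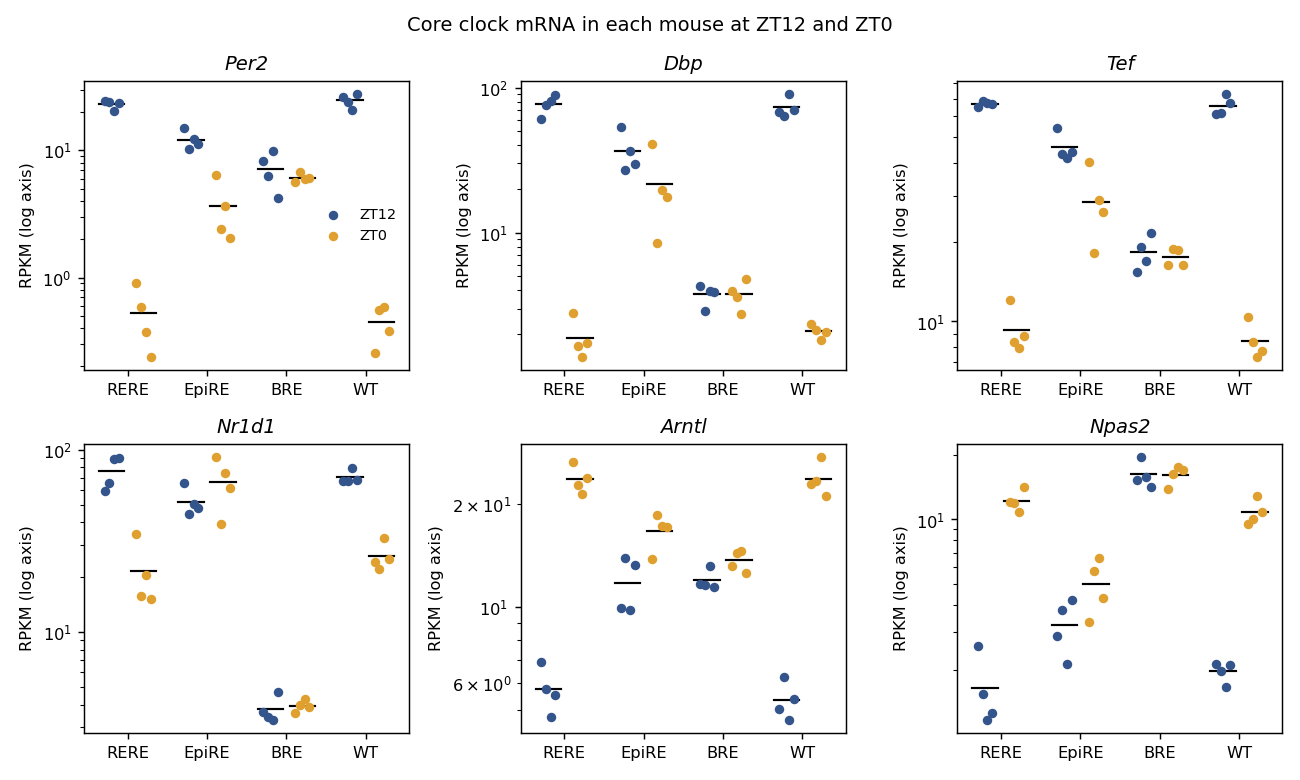
RPKM of Per2, Dbp, Tef, Nr1d1, Arntl and Npas2 in each mouse (log axis) at ZT12, left, and ZT0, right, in each genotype; points are mice and bars are group means. RERE and WT mice were separated by time in all 6 genes, EpiRE mice overlapped in Dbp, Nr1d1, Arntl and Npas2, and BRE mice overlapped in all 6.

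The tests of differences between genotypes gave the same grouping for the clock list. RERE minus WT ranged between -0.871 and 0.434 over the 19 genes, with 0 at an unadjusted p below 0.05. EpiRE minus WT called 11 genes, with Arntl and Npas2 higher and 9 lower, and BRE minus WT called 14, with 3 higher and 11 lower. RERE minus EpiRE called 11 and RERE minus BRE 12. In the same order, the shares called over all genes were 2.52%, 10.8%, 2.4% and 2.2%. By limma EpiRE minus BRE called 0 of the 19, against 6.65% of all genes, with 7 at an unadjusted p below 0.05. The EpiRE median was 0.533 and the BRE median -0.002.

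The spread of the clock genes between mice of 1 group differed by genotype and time. The median within-group SD over both times of the 19 genes was 0.259 log2 units in RERE, 0.355 in EpiRE, 0.275 in BRE and 0.190 in WT epidermis, against 0.135, 0.150, 0.171 and 0.144 over all genes. By time, it was 0.144 at ZT12 and 0.275 at ZT0 in RERE, 0.255 and 0.426 in EpiRE, 0.257 and 0.144 in BRE, and 0.162 and 0.219 in WT epidermis, so RERE at ZT12 and BRE at ZT0 were below WT. The SD over both times was larger than in WT epidermis for 15 of the 19 genes in RERE, 16 in EpiRE and 12 in BRE epidermis, and larger in EpiRE than in RERE epidermis for 10. These values are a description and were not tested.

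Most replication and S phase genes rose at ZT12 in WT epidermis, as did 17 of 33 in RERE and 11 of 33 in EpiRE epidermis, while in BRE epidermis the 2 called members fell. The median difference was 0.591 in RERE, 0.601 in EpiRE and 0.603 in WT epidermis, where 28 genes were higher, and none were lower in these 3 genotypes. Over all genes, 2.52% were higher in RERE, 3.5% in EpiRE and 8.79% in WT epidermis. In BRE epidermis none were higher and 2 were lower, Pola1 among them (median -0.564), with 28 of 33 at an unadjusted p below 0.05. Of all genes, 1.65% were lower there. BRE differed from WT in 29 of the 33 genes, all lower, and RERE and EpiRE differed from BRE in 24 and 28, all higher. Over all genes, BRE minus WT was lower in 4.95%, RERE minus BRE higher in 1.28% and EpiRE minus BRE higher in 5.34%. EpiRE minus WT and RERE minus EpiRE called none of the list, against 2.52% and 2.4% of all genes. By role, all 8 tested licensing genes were among the genes called in BRE minus WT, with 10 of 11 replication fork genes, 4 of 5 genes of S phase entry, 3 of 5 nucleotide synthesis genes and all 4 chromatin assembly genes.

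Cdt1 (chr8:122568015-122573554, plus strand), which loads the replicative helicase onto origins, stood at 6.5, 6.23, 5.13 and 7.19 RPKM at ZT12 in RERE epidermis, against 3.43, 3.00, 2.33 and 2.47 RPKM at ZT0. EpiRE mice had 6.84, 5.23, 6.73 and 3.97 RPKM at ZT12, against 2.89, 2.29, 3.39 and 2.25 RPKM at ZT0. The BRE values were 3.29, 1.87, 2.44 and 4.04 RPKM at ZT12, against 2.49, 4.10, 5.24 and 5.33 RPKM at ZT0. The times were apart in RERE and EpiRE mice and overlapped in BRE mice. In WT epidermis Cdt1 stood at 7.09, 6.42, 7.20 and 7.79 RPKM at ZT12, against 2.60, 2.92, 3.47 and 2.51 RPKM at ZT0. It rose by 1.16 ± 0.23 in RERE (adjusted p = 0.00377), 1.06 ± 0.24 in EpiRE (adjusted p = 0.0213) and 1.32 ± 0.12 in WT epidermis (adjusted p = 8.18e-07). In BRE epidermis its difference was -0.56 ± 0.25 (adjusted p = 0.196), and BRE minus WT was -1.88 ± 0.28 (adjusted p = 2.15e-05).

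Pola1, the catalytic subunit of DNA polymerase alpha, was called with opposite signs in BRE and WT epidermis. It stood at 2.69, 2.16, 2.63 and 2.71 RPKM at ZT12 in BRE epidermis, against 3.15, 3.75, 3.95 and 4.32 RPKM at ZT0, and fell by 0.57 ± 0.13 (adjusted p = 0.0267). In WT epidermis it stood at 4.46, 4.33, 4.13 and 4.38 RPKM at ZT12, against 2.99, 3.32, 3.09 and 2.82 RPKM at ZT0, and rose by 0.50 ± 0.09 (adjusted p = 0.000437). The times did not overlap in either genotype, and BRE minus WT was -1.07 ± 0.15 (adjusted p = 1.24e-05).

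The S phase calls of EpiRE and BRE rested on few mice. Without the ZT0 mouse 1, whose S phase mean was lowest of its group, 19 genes were called lower in BRE epidermis (median -0.667), and without the ZT12 mouse 4, 9 were. Without the ZT12 mouse 2 or the ZT0 mouse 2, 3 or 4 none were, and without the ZT12 mouse 1 or 3, 1 was. In EpiRE epidermis the count was 23 without the ZT12 mouse 4, 6 without the ZT12 mouse 2 or the ZT0 mouse 3, 4 without the ZT0 mouse 2, 1 without the ZT12 mouse 1 or 3, and 0 without the ZT0 mouse 4. It was also 4 with a replicate block and 3 without a filter on low values. In BRE epidermis 0 were called without that filter and 1 after median-of-ratios rescaling, and with the ZT12 and ZT0 libraries alone it was 0 in both genotypes, while the medians had the same sign in every such fit. Of the T cell markers in BRE epidermis, 6 of 6 tested were lower at an unadjusted p below 0.05 (median -1.059). Ptprc, the common leukocyte antigen, was called, against 1.65% of all genes called lower. That 1 call was lost without any of the ZT12 mice 2, 3 and 4 or the ZT0 mice 2, 3 and 4. Their summed level was 12.5 to 18.3 RPKM at ZT12 and 24.3 to 37.8 RPKM at ZT0 in BRE epidermis, 14.3 to 18 RPKM at ZT12 and 23.3 to 34.5 RPKM at ZT0 in RERE, 16.2 to 36.1 RPKM at ZT12 and 22.5 to 26.6 RPKM at ZT0 in EpiRE, and 11.8 to 31.9 RPKM at ZT12 and 13.7 to 33.3 RPKM at ZT0 in WT epidermis. In RERE epidermis the T cell median was also negative (-0.717, none at an unadjusted p below 0.05). The part of these cells in the S phase result was not tested.

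G2 and mitosis genes, which act when cells divide, fell in RERE and WT epidermis, and none passed the test in EpiRE or BRE epidermis. Of 32 tested genes 30 were lower at ZT12 in RERE (median -1.401) and all 32 in WT epidermis (median -1.312). Over all genes, 6.14% were lower in RERE and 16.8% in WT epidermis, and 5.11% were called in EpiRE and 2.12% in BRE epidermis. In EpiRE epidermis limma called 0 (median 0.097), with 1 at an unadjusted p below 0.05, and in BRE epidermis 0 (median -0.021), with 0 at an unadjusted p below 0.05. The difference from WT was called for 27 genes in EpiRE and for 27 in BRE epidermis, all higher, and RERE differed from EpiRE in 27 and from BRE in 19 genes, all lower. Over all genes, EpiRE minus WT was higher in 1.96% and BRE minus WT in 5.86%. RERE minus EpiRE was lower in 2.06% and RERE minus BRE in 0.922%. In EpiRE minus WT the S phase list thus had 0 called genes (2 at an unadjusted p below 0.05) and the mitotic list 27. Leaving out single libraries gave 29 to 32 calls in RERE, 31 to 32 in WT and 0 in EpiRE and BRE epidermis.

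Ube2c (chr2:164769898-164778822, plus strand), the ubiquitin-conjugating enzyme that works with the anaphase-promoting complex, stood at 17.9, 11.5, 12.1 and 13.2 RPKM at ZT12 in RERE epidermis, against 29.1, 51.5, 39.0 and 37.0 RPKM at ZT0. The EpiRE values were 23.7, 27.9, 29.4 and 16.9 RPKM at ZT12, against 17.0, 35.8, 27.2 and 21.3 RPKM at ZT0. In BRE epidermis it stood at 21.5, 18.6, 24.1 and 35.1 RPKM at ZT12, against 19.5, 15.7, 18.9 and 29.6 RPKM at ZT0. EpiRE and BRE mice overlapped between the times, and their spread at each time was wide. In WT epidermis Ube2c stood at 16.1, 14.6, 15.8 and 17.1 RPKM at ZT12, against 41.4, 41.5, 42.2 and 30.2 RPKM at ZT0. It fell by 1.51 ± 0.16 in RERE (adjusted p = 9.41e-06) and by 1.28 ± 0.11 in WT epidermis (adjusted p = 1.56e-07), and EpiRE minus WT was 1.25 ± 0.30 (adjusted p = 0.0204).

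Among G1 regulators, Ccnd2 (cyclin D2) was called in RERE and WT epidermis. In EpiRE epidermis it stood at 132, 92.2, 100 and 83.9 RPKM at ZT12, against 130, 83.6, 88.2 and 80.1 RPKM at ZT0. It rose by 1.29 ± 0.14 in RERE (adjusted p = 9.41e-06) and by 1.38 ± 0.19 in WT epidermis (adjusted p = 3.96e-05). Its difference was 0.10 ± 0.19 in EpiRE and -0.40 ± 0.12 in BRE epidermis (adjusted p = 0.0705), and EpiRE minus WT was -1.27 ± 0.27 (adjusted p = 0.00941). Cdk2, the kinase of cyclins E and A, rose in RERE, EpiRE and WT epidermis, by 0.40 ± 0.11, 0.51 ± 0.08 and 0.66 ± 0.07, and was -0.27 ± 0.11 in BRE epidermis (adjusted p = 0.148). Wee1, a kinase that holds back mitosis and a known clock target, was called higher in RERE and WT epidermis.

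**Figure D4:**
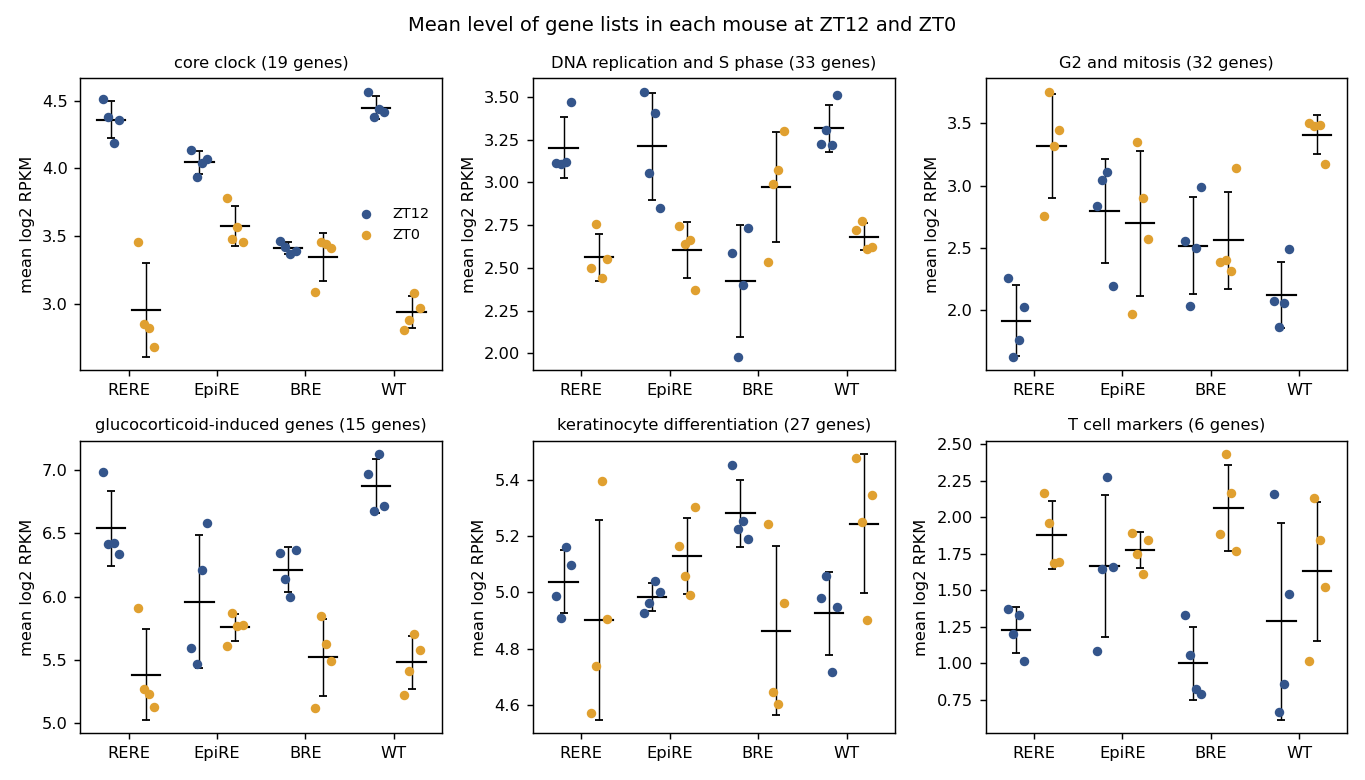
Mean log2 RPKM of 6 gene lists in each mouse at ZT12, left, and ZT0, right, by genotype; points are mice, and bars are the mean ± SD of 4 mice. S phase means of BRE mice ran 1.979 to 2.735 at ZT12 and 2.534 to 3.300 at ZT0, and G2 and mitosis means of WT mice ran 1.871 to 2.491 at ZT12 and 3.177 to 3.5 at ZT0.

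Some genes that glucocorticoid hormone induces were called higher at ZT12 in RERE, BRE and WT epidermis, and none passed in EpiRE epidermis. Of 15 tested, 7 were higher in RERE (median 0.853), 0 in EpiRE by limma (median 0.183, 2 at an unadjusted p below 0.05), 2 in BRE, Glul and Fkbp5 (median 0.494, 8 at an unadjusted p below 0.05), and 13 in WT epidermis, where Cdkn1a was lower (median 1.290). Over all genes 2.52% were higher in RERE, 3.5% in EpiRE, 0.478% in BRE and 8.79% in WT epidermis. The 0 of 15 in EpiRE epidermis is thus not apart from the share of all genes. EpiRE minus WT called 3 genes, Tsc22d3, Glul and Fkbp5, all lower, whereas BRE minus WT called 1, Cdkn1a, higher. Over all genes, EpiRE minus WT was lower in 0.56% and BRE minus WT higher in 5.86%. By limma RERE minus EpiRE called 0 of the 15, against 2.4% of all genes, with 5 at an unadjusted p below 0.05. Leaving out single libraries gave 3 to 9 calls in RERE, 3 without the ZT12 mouse 1 or the ZT0 mouse 4 and 4 without the ZT0 mouse 2 or 3. In BRE epidermis it gave 2 without the ZT12 mouse 4 or the ZT0 mouse 1 and 1 without any other mouse, and with the ZT12 and ZT0 libraries alone there were 5 in RERE and 0 in BRE epidermis.

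Glul, glutamine synthetase (chr1:153899944-153909723, plus strand), stood at 215, 127, 113 and 111 RPKM at ZT12 in RERE epidermis, against 45.9, 31.6, 26.9 and 35.9 RPKM at ZT0. EpiRE mice had 78.1, 58.7, 104 and 176 RPKM at ZT12, against 78.0, 62.4, 89.3 and 73.1 RPKM at ZT0. BRE mice had 104, 92.3, 63.1 and 107 RPKM at ZT12, against 25.0, 38.2, 32.6 and 31.3 RPKM at ZT0. The times were apart in RERE and BRE mice and overlapped in EpiRE mice. In WT epidermis Glul stood at 182, 140, 202 and 184 RPKM at ZT12, against 42.5, 38.2, 39.2 and 37.1 RPKM at ZT0. It rose by 1.98 ± 0.37 in RERE (adjusted p = 0.00229), 1.52 ± 0.19 in BRE (adjusted p = 0.00216) and 2.16 ± 0.19 in WT epidermis (adjusted p = 3.54e-07). In EpiRE epidermis the difference was 0.35 ± 0.28 (adjusted p = 0.456), and both EpiRE minus WT (-1.81 ± 0.34, adjusted p = 0.00303) and EpiRE minus BRE (-1.17 ± 0.34, adjusted p = 0.0364) passed.

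Fkbp5, a chaperone partner of the glucocorticoid receptor that the hormone strongly induces, stood at 4.41, 2.18, 4.19 and 48.5 RPKM at ZT12 in EpiRE epidermis, against 5, 4.77, 19.5 and 18.7 RPKM at ZT0. The 1 high mouse at ZT12, mouse 4, also had the highest Tsc22d3 (64.4 RPKM) and Glul (176 RPKM) of its group. Fkbp5 rose by 2.78 ± 0.67 in RERE (adjusted p = 0.0132), 2.03 ± 0.50 in BRE (adjusted p = 0.0390) and 2.71 ± 0.37 in WT epidermis (adjusted p = 4.00e-05), and its difference was -0.54 ± 0.82 in EpiRE epidermis (adjusted p = 0.736). Tsc22d3, which encodes the anti-inflammatory protein GILZ, stood at 52.3, 33.9, 46.9 and 75.0 RPKM at ZT12 in BRE epidermis, against 19.2, 27.9, 24.3 and 15.2 RPKM at ZT0. It rose by 2.03 ± 0.51 in RERE (adjusted p = 0.0166) and 2.34 ± 0.17 in WT epidermis (adjusted p = 1.88e-08), while 1.25 ± 0.34 in BRE epidermis missed the threshold (adjusted p = 0.0589). EpiRE minus WT was -2.30 ± 0.43 (adjusted p = 0.00271).

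Txnip, an inhibitor of thioredoxin and of glucose uptake, rose in BRE and WT epidermis. It stood at 330, 205, 203 and 522 RPKM at ZT12 in BRE epidermis, against 69.4, 162, 124 and 56.9 RPKM at ZT0, without overlap. WT mice had 356, 412, 631 and 443 RPKM at ZT12, against 90.2, 90.5, 89.7 and 91.8 RPKM at ZT0. The difference was 1.62 ± 0.36 in BRE (adjusted p = 0.0297), 2.31 ± 0.25 in WT (adjusted p = 4.71e-06), 1.43 ± 0.51 in RERE (adjusted p = 0.0904) and -0.61 ± 0.38 in EpiRE epidermis (adjusted p = 0.325). EpiRE minus WT was -2.92 ± 0.46 (adjusted p = 0.000387) and EpiRE minus BRE -2.23 ± 0.53 (adjusted p = 0.0136).

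Among the largest changes of BRE epidermis was that of F3, tissue factor, which starts blood coagulation. It stood at 20.9, 19.5, 15.4 and 14.9 RPKM at ZT12 in BRE epidermis, against 7.97, 4.02, 3.26 and 5.22 RPKM at ZT0. The WT values were 6.36, 4.50, 3.99 and 3.08 RPKM at ZT12, against 11.8, 7.95, 3.10 and 9.46 RPKM at ZT0. BRE mice were apart and WT mice overlapped. F3 rose by 1.86 ± 0.35 in BRE epidermis (adjusted p = 0.0166), and its difference was -0.49 ± 0.43 in RERE, 0.08 ± 0.52 in EpiRE and -0.74 ± 0.60 in WT epidermis, with BRE minus WT of 2.60 ± 0.70 (adjusted p = 0.0133) and RERE minus BRE of -2.34 ± 0.56 (adjusted p = 0.0146).

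Gadd45b and Irf1 were among the largest changes of EpiRE epidermis. Gadd45b, induced by growth arrest and DNA damage signals, stood at 43.3, 53.5, 76.0 and 40.8 RPKM at ZT12 in EpiRE epidermis, against 18.2, 15.4, 19.6 and 16.6 RPKM at ZT0. The WT values were 82.0, 75.7, 109 and 56.8 RPKM at ZT12, against 18.9, 29.1, 34.5 and 20.1 RPKM at ZT0. The times were apart in both. Gadd45b rose by 1.57 ± 0.31 in EpiRE (adjusted p = 0.0180) and 1.66 ± 0.41 in WT epidermis (adjusted p = 0.00656), and differed by 0.70 ± 0.35 in RERE (adjusted p = 0.237) and -0.41 ± 0.40 in BRE epidermis (adjusted p = 0.594). Irf1, an interferon-response transcription factor, rose by 1.55 ± 0.31 in EpiRE (adjusted p = 0.0180) and 1.59 ± 0.53 in WT epidermis (adjusted p = 0.0323). Of 19 immediate early genes, 0 were called by limma in RERE (5 at an unadjusted p below 0.05), 1 in EpiRE (Ier3), 0 in BRE (1 at an unadjusted p below 0.05) and 3 in WT epidermis (Nr4a1, Ier3 and Myc), all higher, against 2.52%, 3.5%, 0.478% and 8.79% of all genes higher in the 4 genotypes. The WT count was 11 without the ZT0 mouse 3, 0 without the ZT12 mouse 1 or the ZT0 mouse 1, 1 without the ZT12 mouse 3 or the ZT0 mouse 2 or 4, and 1 with the ZT12 and ZT0 libraries alone. In RERE epidermis it was 3 without the ZT0 mouse 1, and in EpiRE epidermis 0 without the ZT12 mouse 3 or the ZT0 mouse 4 and with those libraries alone.

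Some keratinocyte differentiation genes fell at ZT12 in WT epidermis, and the median of the list was positive in BRE epidermis. In WT epidermis 8 of 27 were called lower, against 16.8% of all genes, among them the suprabasal keratins Krt1, Krt10 and Krt77 and the envelope protein gene Ivl, and 3 were higher, Klf4, Tgm3 and Aloxe3 (median -0.343). In RERE epidermis Tgm3, Aloxe3 and Klf4 were higher and Sprr2a3 lower (median 0.127), against 2.52% and 6.14% of all genes. In EpiRE epidermis Lor alone was higher (median -0.174), near the 3.5% of all genes. That 1 call was lost without the ZT12 mouse 2 or 3 or the ZT0 mouse 2, 3 or 4. In BRE epidermis limma called 0 (median 0.463), with 16 at an unadjusted p below 0.05, and without the ZT0 mouse 1 it called 9, all higher. BRE minus WT called 11 of the 27, all higher, against 5.86% of all genes. Leaving out single WT libraries gave 4 to 10 lower genes, with 4 without the ZT12 mouse 3 and 5 without the ZT12 mouse 1 or the ZT0 mouse 1 or 4.

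Krt10 (chr11:99385254-99389364, minus strand), the main keratin of suprabasal layers, stood at 8485, 9147, 10320 and 7140 RPKM at ZT12 in BRE epidermis, against 8754, 5630, 5147 and 6245 RPKM at ZT0. In WT epidermis it stood at 4087, 5461, 3722 and 3901 RPKM at ZT12, against 8159, 7454, 5783 and 9761 RPKM at ZT0. WT mice were apart and BRE mice overlapped through the 1 high mouse at ZT0. Krt10 fell by 0.85 ± 0.20 in WT epidermis (adjusted p = 0.00465), and its difference was -0.01 ± 0.22 in RERE, -0.43 ± 0.20 in EpiRE (adjusted p = 0.191) and 0.46 ± 0.19 in BRE epidermis (adjusted p = 0.157). BRE minus WT was 1.31 ± 0.27 (adjusted p = 0.00167), and RERE minus WT was 0.84 ± 0.30 (adjusted p = 0.664). Lor, loricrin of the cornified envelope, rose by 1.16 ± 0.28 in EpiRE epidermis (adjusted p = 0.0261) and was 0.01 ± 0.34 in WT epidermis, a difference of 1.15 ± 0.45 that did not pass (adjusted p = 0.169).

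Chaperones of the endoplasmic reticulum, which fold secreted and membrane proteins, had members that fell at ZT12 in every genotype. Of 16 tested, 6 were lower and 1 higher in RERE (median -0.325), 2 lower in EpiRE (median -0.141), 3 lower and 1 higher in BRE (median -0.213), and 11 lower and 1 higher in WT epidermis (median -0.475). Over all genes, 6.14% were lower in RERE, 1.61% in EpiRE, 1.65% in BRE and 16.8% in WT epidermis. The shares higher were 2.52% in RERE, 0.478% in BRE and 8.79% in WT epidermis. With the ZT12 and ZT0 libraries alone, 2 were lower in RERE, 0 in EpiRE, 0 in BRE and 11 in WT epidermis. The lower genes were 2 in RERE without the ZT12 mouse 1 or 2 or the ZT0 mouse 2, 1 in EpiRE without any 1 mouse, and in BRE 6 without the ZT0 mouse 1, 5 without the ZT12 mouse 4, 2 without the ZT12 mouse 1 or 3 and 1 without any other mouse. The 1 higher gene was Herpud1, of protein quality control, in RERE (0.69 ± 0.20), BRE (0.55 ± 0.13) and WT epidermis (0.68 ± 0.09).

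Pdia3, a disulfide isomerase of that compartment, was called lower in all 4 genotypes. It stood at 104, 110, 125 and 132 RPKM at ZT12 in RERE epidermis, against 143, 167, 153 and 132 RPKM at ZT0. In EpiRE epidermis it stood at 130, 117, 130 and 120 RPKM at ZT12, against 147, 151, 143 and 139 RPKM at ZT0, and in BRE epidermis at 134, 110, 134 and 139 RPKM at ZT12, against 155, 159, 157 and 162 RPKM at ZT0. WT mice had 112, 120, 105 and 114 RPKM at ZT12, against 159, 170, 156 and 157 RPKM at ZT0. All 4 genotypes had every mouse at ZT12 below every mouse at ZT0, though in RERE epidermis the nearest values round to 132 RPKM. Pdia3 fell by 0.34 ± 0.09 in RERE (adjusted p = 0.0260), 0.23 ± 0.06 in EpiRE (adjusted p = 0.0427), 0.30 ± 0.06 in BRE (adjusted p = 0.0166) and 0.51 ± 0.09 in WT epidermis (adjusted p = 0.000710). Only 6 genes were called in all 4 genotypes, 5 of them with 1 sign, and all 5 were lower: Vcl (vinculin, of cell adhesions), Pdia3, Shtn1, Actr2 (of the actin-branching complex) and Yme1l1 (a mitochondrial protease). The smallest of their 4 differences was 0.285 log2 units in size for Vcl and 0.203 for Yme1l1, and none of the 6 differences between genotypes passed for Vcl or Pdia3. With the ZT12 and ZT0 libraries alone limma called 0 genes in BRE epidermis, so no gene was then called in all 4 genotypes.

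The sixth gene called everywhere was Mthfd1l, the mitochondrial enzyme that makes formate in one-carbon metabolism, and its sign turned in BRE epidermis. It stood at 3.30, 3.22, 4.02 and 4.10 RPKM at ZT12 in RERE epidermis, against 0.512, 0.593, 0.968 and 0.625 RPKM at ZT0. EpiRE mice had 3.16, 2.01, 2.69 and 2.02 RPKM at ZT12, against 1.76, 0.883, 1.14 and 0.910 RPKM at ZT0. The BRE values were 0.909, 0.690, 1.33 and 1.22 RPKM at ZT12, against 1.24, 1.95, 1.84 and 2.03 RPKM at ZT0. RERE and EpiRE mice were apart, and BRE mice overlapped by 1 value. In WT epidermis Mthfd1l stood at 3.72, 4.14, 3.54 and 4.90 RPKM at ZT12, against 0.688, 0.937, 0.624 and 0.952 RPKM at ZT0. It rose by 2.47 ± 0.22 in RERE, 1.11 ± 0.31 in EpiRE (adjusted p = 0.0458) and 2.36 ± 0.19 in WT epidermis, and fell by 0.79 ± 0.19 in BRE epidermis (adjusted p = 0.0342). BRE minus WT was -3.15 ± 0.27 (adjusted p = 8.05e-11) and EpiRE minus BRE 1.89 ± 0.37 (adjusted p = 0.00752).

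In all, 14 genes were called with opposite signs in some pair of genotypes. Rbms1, an RNA-binding protein gene, had the tightest values among them: 31.2, 33.4, 30.8 and 32.4 RPKM at ZT12 in BRE epidermis, against 26.5, 27.1, 26.8 and 28.0 RPKM at ZT0. The WT values were 23.3, 25.2, 21.9 and 26.1 RPKM at ZT12, against 30.3, 27.8, 27.3 and 27.6 RPKM at ZT0. The times were apart in both, in opposite order. Rbms1 rose by 0.24 ± 0.03 in BRE epidermis (adjusted p = 0.00216) and fell by 0.23 ± 0.05 in WT (adjusted p = 0.00290) and 0.18 ± 0.05 in RERE epidermis (adjusted p = 0.0234), with BRE minus WT of 0.47 ± 0.06 (adjusted p = 1.07e-06).

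Ttc9, a tetratricopeptide-repeat gene listed among clock outputs shared by tissues, fell in RERE and WT epidermis, fell less in EpiRE and was not called in BRE epidermis. It stood at 0.767, 0.843, 0.757 and 0.613 RPKM at ZT12 in RERE epidermis, against 3.00, 3.27, 3.95 and 3.54 RPKM at ZT0. The EpiRE values were 1.05, 1.15, 1.04 and 1.29 RPKM at ZT12, against 1.75, 2.05, 2.26 and 1.96 RPKM at ZT0. In BRE epidermis it stood at 4.89, 5.16, 5.34 and 3.94 RPKM at ZT12, against 6.04, 4.67, 4.41 and 4.95 RPKM at ZT0, overlapping where the other genotypes did not. In WT epidermis it stood at 0.667, 0.766, 0.648 and 0.521 RPKM at ZT12, against 2.92, 3.52, 3.36 and 3.70 RPKM at ZT0. Ttc9 fell by 2.21 ± 0.14 in RERE, fell by 0.83 ± 0.18 in EpiRE (adjusted p = 0.0209), fell by 2.38 ± 0.13 in WT epidermis and was -0.05 ± 0.11 in BRE epidermis. Here EpiRE differed both from WT (1.56 ± 0.23, adjusted p = 0.000136) and from BRE (-0.77 ± 0.21, adjusted p = 0.0263).

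Cxcl14, a chemokine of epithelia, likewise fell by 1.75 ± 0.19 in RERE (adjusted p = 1.24e-05) and 1.33 ± 0.18 in WT epidermis (adjusted p = 5.47e-05). In EpiRE epidermis it stood at 147, 162, 163 and 181 RPKM at ZT12, against 182, 258, 234 and 182 RPKM at ZT0, a difference of -0.38 ± 0.15 that did not pass (adjusted p = 0.132). In BRE epidermis it averaged 322 ± 13.4 RPKM at ZT12 and 340 ± 50.4 RPKM at ZT0 (SD, n = 4 each), and in WT epidermis 96.6 ± 15.8 RPKM at ZT12 and 242 ± 40.3 RPKM at ZT0. EpiRE minus WT was 0.95 ± 0.24 (adjusted p = 0.0270) and BRE minus WT 1.26 ± 0.21 (adjusted p = 0.000130).

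**Figure D5:**
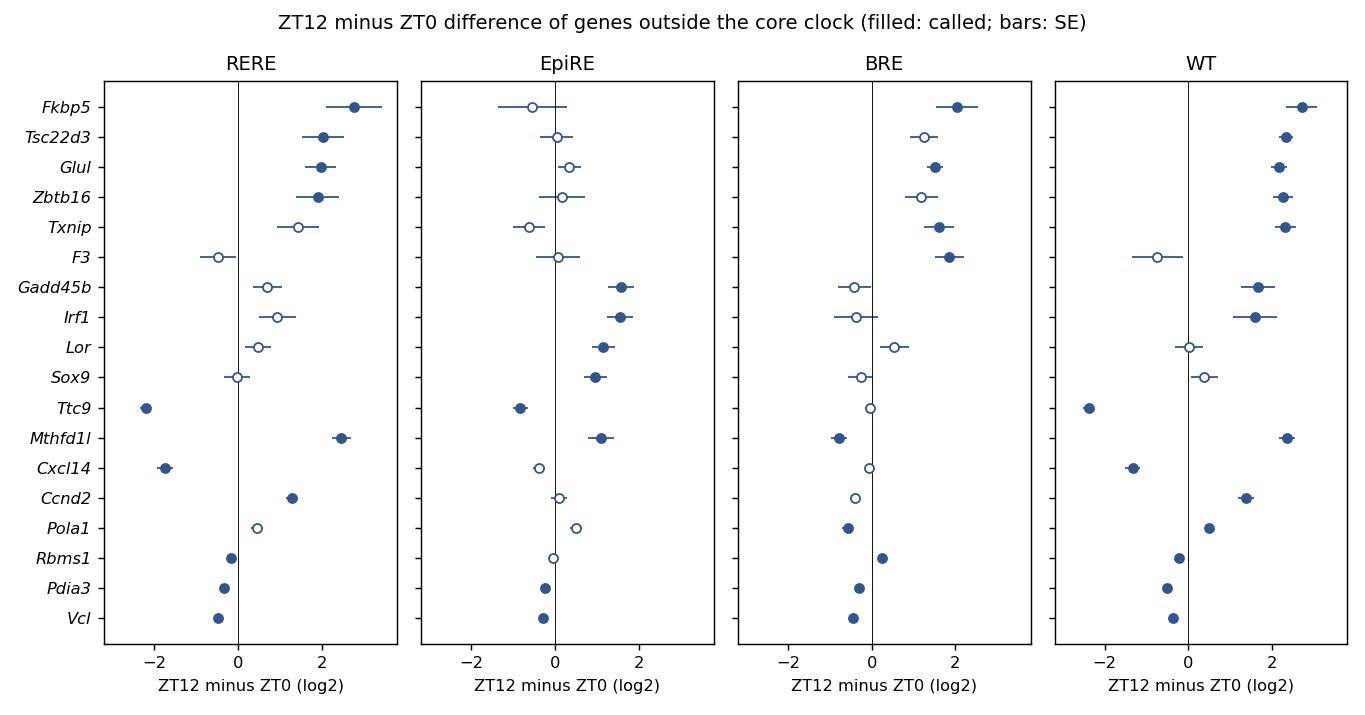
ZT12 minus ZT0 (horizontal axes, log2) of 18 named genes in RERE, EpiRE, BRE and WT epidermis; points are limma estimates, bars their SE, and filled points passed an adjusted p of 0.05. Mthfd1l lies at 2.47, 1.11, -0.79 and 2.36 in the 4 genotypes, and Pdia3 lies below 0 in all 4.

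Some lipid synthesis genes fell at ZT12 in WT epidermis, fewer than were left uncalled, and 1 passed in the other genotypes. Of 18 cholesterol genes, 8 were lower in WT epidermis (median -0.596), against 16.8% of all genes, among them Mvk, which fell by 0.58 ± 0.13, and limma called 0 in RERE, 0 in EpiRE and 0 in BRE epidermis (0, 0 and 2 at an unadjusted p below 0.05). Of 14 fatty acid synthesis genes, 6 were lower in WT epidermis (median -0.507), against 16.8% of all genes. In RERE epidermis 1 was lower, against 6.14% of all genes: Acaca, the enzyme that commits acetyl-CoA to fatty acids, which was called lower in WT epidermis as well. BRE minus WT called 5 cholesterol and 6 fatty acid synthesis genes, all higher, against 5.86% of all genes. The list of 17 fasting and fatty acid oxidation genes went both ways, with 1 higher and 4 lower in RERE, 3 lower in EpiRE, 2 higher in BRE, and 4 higher and 4 lower in WT epidermis. Over all genes, 2.52% were higher and 6.14% lower in RERE, and 1.61% were lower in EpiRE epidermis. In BRE epidermis 0.478% were higher, and in WT epidermis 8.79% were higher and 16.8% lower. Hadha and Hadhb, the subunits of the mitochondrial trifunctional protein, were among the lower genes of this list in RERE, EpiRE and WT epidermis. In EpiRE epidermis the lower count was 0 without the ZT12 mouse 1 or 3 or the ZT0 mouse 3 or 4, 1 without the ZT12 mouse 2, and 0 with the ZT12 and ZT0 libraries alone.

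In WT epidermis 16.8% of all genes were lower and 8.79% higher. Among large complexes, 14 of 26 proteasome genes were lower there (median -0.201), as were 10 of 30 nuclear-encoded respiratory chain genes (median -0.150). Of 30 ribosomal protein genes 7 were higher (median 0.191). These small shifts depended on scaling: after median-of-ratios rescaling the counts were 8, 6 and 14, and with the ZT12 and ZT0 libraries alone 1 ribosomal protein gene was higher and 8 proteasome genes were lower. Leaving out 1 WT mouse gave 0 to 10 ribosomal protein genes, with 0 without the ZT12 mouse 3, 1 without the ZT0 mouse 1, 3 or 4 and 2 without the ZT12 mouse 2. It gave 7 to 16 proteasome genes, with 7 without the ZT0 mouse 2, 8 without the ZT0 mouse 1 and 9 without the ZT12 mouse 1, and 5 to 13 respiratory chain genes, with 5 without the ZT0 mouse 1 or 2 and 6 without the ZT12 mouse 1. In BRE epidermis 11 ribosomal protein genes were higher without the ZT0 mouse 1, and 0 by limma with all mice. In RERE epidermis 1 proteasome gene and 2 respiratory chain genes were lower, numbers near the 6.14% of all genes lower there. In BRE epidermis 1 respiratory chain gene was higher and 1 lower, against 0.478% and 1.65% of all genes. In EpiRE epidermis 0 of either list were called by limma (4 and 2 at an unadjusted p below 0.05), where 5.11% of all genes were called.

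The rhythm tests that the authors deposited across all 6 times overlapped these calls unevenly. In the authors' deposited table, 651 of the 1052 genes called here in RERE epidermis had a JTK q-value below 0.05, as did 12 of 620 in EpiRE, 147 of 258 in BRE and 1439 of 3107 in WT epidermis. The same table held 1035 such genes among those tested in RERE, 19 in EpiRE, 689 in BRE and 2521 in WT epidermis. The libraries behind both are the same, so this is a description of the calls and no independent check.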

How the data were processed

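RNA from 96 mouse epidermis libraries was sequenced after polyA selection with a stranded kit. Per the submitters' processing notes, Trimmomatic 0.36, HISAT2 2.2.1, SAMtools 1.3.1, featureCounts 1.6.0 and edgeR were used with mm10; whether counting used strand is not given in the sources used here. The authors deposited log2 values, which the values themselves show to be log2 RPKM with a prior count of 2; no label names this unit. The authors also deposited q-values of rhythm tests, which were only counted. The 96 per-sample columns of the rhythm files were not used.

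ZT12 minus ZT0 was fitted per genotype with limma 3.58.1 in R 4.3.3 (trended variance, 24 libraries, 18 residual degrees of freedom), and differences between genotypes over 48 libraries, with Benjamini-Hochberg adjustment over 12144 of 22384 genes. The other 10240 were not tested. Python 3.11.15, pandas 2.3.3, numpy 2.4.6 and matplotlib 3.10.9 were used, and the fit was tested on simulated data. Precision rests on the 4 mice per group, at estimated depths of 11.3 to 32.4 M reads over the 96 libraries.

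Named genes are the clock genes, the 12 largest called changes per genotype above 10 RPKM, the 8 smallest p-values per difference, up to 4 per list with any needed for its count, the 8 strongest opposite signs and the 8 largest changes shared by all genotypes. Some genes that these rules name are not reported here. Gene lists and named genes were chosen with earlier results of these data known. Alternatives were the ZT12 and ZT0 libraries alone, no filter, another pseudocount, another scaling, a replicate block, no variance trend and leaving out each mouse. Positions are from GENCODE M21.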

Additional observations from a re-analysis of the deposited data

Results flagged for a closer look

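Single mice stood apart from the other 3 of their group in 18 of 240 groups of 4 (7.5%), where chance flags about 1 in 20. Among list means (log2 RPKM), these were RERE ZT12 mouse 4 in S phase genes (highest, 3.47), RERE ZT12 mouse 1 in glucocorticoid-induced genes (highest, 6.98), BRE ZT0 mouse 1 in core clock genes (lowest, 3.08), BRE ZT0 mouse 4 in G2 and mitosis genes (highest, 3.14) and WT ZT0 mouse 4 in the same list (lowest, 3.18).

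Among single genes, BRE ZT0 mouse 1 was lowest in Nfil3 (9.67 RPKM), Gadd45b (21.5 RPKM) and Vcl (15.5 RPKM). In other BRE mice, ZT12 mouse 3 was highest in Arntl (13.2 RPKM) and ZT12 mouse 2 lowest in Pola1 (2.16 RPKM). In RERE mice, ZT12 mouse 1 was highest in Txnip (478 RPKM), ZT0 mouse 1 highest in Gadd45b (59.6 RPKM) and ZT0 mouse 2 lowest in Rbms1 (26.8 RPKM). In WT mice, ZT12 mouse 3 was highest in Nr1d1 (79.5 RPKM) and lowest in Vcl (10.9 RPKM), ZT12 mouse 2 highest in Cxcl14 (120 RPKM), ZT0 mouse 4 lowest in Ube2c (30.2 RPKM) and ZT0 mouse 1 highest in Rbms1 (30.3 RPKM).

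The contrast differed between genotypes by limma's test of the difference in 306 genes for EpiRE minus WT, 1313 for BRE minus WT, 292 for RERE minus EpiRE, 267 for RERE minus BRE and 808 for EpiRE minus BRE. For 7 of the genes called with opposite signs, the BRE minus WT differences were -3.15 (Mthfd1l), 0.47 (Rbms1), -1.24 (Rnaseh2b), -1.07 (Pola1), -1.17 (Foxred2) and -0.91 (Usp37), and the EpiRE minus WT difference was 0.39 (Dazap1), all on the log2 scale.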

How the results depend on the processing

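With the ZT12 and ZT0 libraries alone, genes called numbered 3 in EpiRE and 0 in BRE (1960 at an unadjusted p below 0.05 by limma), 1 in RERE minus WT, 83 in EpiRE minus WT, 702 in BRE minus WT, 92 in RERE minus EpiRE, 121 in RERE minus BRE and 2 in EpiRE minus BRE. Without a filter on low values they numbered 247 in EpiRE, 111 in BRE, 158 in EpiRE minus WT, 168 in RERE minus EpiRE and 419 in EpiRE minus BRE, with more genes tested. Median-of-ratios rescaling gave 105 in BRE. The other counts under these settings, and all counts with log2(RPKM + 1) or no variance trend, were within 1.5 times those reported. The cause was not tested.

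Same-numbered mice at ZT12 and ZT0 did not deviate together: correlations of their deviations ran between -0.40 and 0.36, and the best partner was the own number in 3 mice (RERE 1, RERE 3 and EpiRE 4). With the replicate number as a block, EpiRE had 307 called genes and RERE minus WT 1, and no other count moved by over 1.5 times.

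Leaving out 1 mouse at a time gave 613 to 1278 called genes in RERE, 74 to 837 in EpiRE, 31 to 966 in BRE and 2287 to 3296 in WT. It gave 0 to 1 in RERE minus WT, 129 to 521 in EpiRE minus WT, 847 to 2061 in BRE minus WT, 112 to 473 in RERE minus EpiRE, 167 to 340 in RERE minus BRE and 166 to 1828 in EpiRE minus BRE. The highest counts of BRE, BRE minus WT, RERE minus BRE and EpiRE minus BRE came without the BRE ZT0 mouse 1. No named gene that was called as reported turned its sign under any alternative run. Of the 256 differences of named genes, 30 that were not called turned when 1 mouse was left out, with these ranges (log2): in RERE, Nfil3 -0.41 to 0.55, Sox9 -0.18 to 0.19, Krt10 -0.20 to 0.19, Mvk -0.21 to 0.00 and Krt77 -0.25 to 0.25. In EpiRE, Arntl2 -0.01 to 0.16, Ube2c -0.20 to 0.16, Ccnd2 -0.03 to 0.26, Tsc22d3 -0.36 to 0.35, Zbtb16 -0.45 to 0.46, F3 -0.04 to 0.33, Tgm3 -0.22 to 0.43, Rbms1 -0.07 to 0.00 and Col1a1 -0.71 to 0.64. In BRE, Clock -0.12 to 0.02, Npas2 -0.10 to 0.06, Per2 -0.01 to 0.39, Dbp -0.14 to 0.13, Tef -0.04 to 0.13, Nfil3 -0.59 to 0.06, Ttc9 -0.11 to 0.04, Ier3 -0.44 to 0.17, Krt1 -0.04 to 0.21, Mvk -0.04 to 0.14, Ldah -0.10 to 0.00, Hadha -0.06 to 0.01, Nr4a1 -0.50 to 0.16, Myc -0.09 to 0.36 and Dazap1 -0.03 to 0.10. In WT, Lor -0.31 to 0.22. Median-of-ratios rescaling turned 10 of these: in RERE Sox9 0.02 and Krt10 0.02, in EpiRE Tgm3 -0.02, in BRE Clock 0.00, Npas2 0.06, Ttc9 0.00, Ier3 0.02, Ldah 0.01, Hadha 0.03 and Nr4a1 0.01. Depth allows no count test here, since whole reads could be recovered from the deposited values for weak genes only.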
